A study of Mus musculus with 8 samples.

Results

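The genes described here are the cytoplasmic ribosomal protein genes of the mouse, followed through the first cell cycle of B cells after activation. Members were the autosomal protein-coding genes of the GENCODE M21 annotation whose symbol is Rpl or Rps and a number, with at most 1 further letter a, x, l or y, and kinases of the Rps6k kind were left out. The rule gave 72 genes out of 20807 autosomal protein-coding genes, of which 43 belong to the large subunit (Rpl) and 29 to the small subunit (Rps). They start in 70 bins of 50 kb, because some members share a bin, as Rps2 and Rpl3l do on chromosome 17. Rpl39, Rpl10, Rps4x and Rpl36a lie on X and were not members. The rule also leaves out genes with other forms of symbol, such as Rpl36al, which starts in the bin of Rps29.

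The assay was in situ Hi-C: fixed chromatin is cut, neighbouring ends are ligated, and every sequenced read pair is a record of 2 loci that lay together. It was run on splenic B cells of male C57BL/6 mice aged 6 to 12 weeks (on a Pep3b background according to the methods), labelled with CellTrace Violet (CTV, a dye diluted at each division) and cultured with 25 µg/ml lipopolysaccharide (LPS), which all groups received. There were 2 libraries in each of 4 groups, taken at 3 h and at 10 h, and at 33 h as imminent division and as pre-S. Cells of the first 3 groups were sorted as activated (CD69+) B cells that had kept the most dye, so that they had not divided. The pre-S cells came from C57BL/6 FUCCI mice, which carry 2 fluorescent cell cycle reporters, and were sorted at 33 h by the same markers and as mAG- mKO2hi, the G1 state of the reporter. Mouse strain and sort gate therefore change together with the pre-S group and cannot be told apart from it. The imminent division group had no cell cycle gate. The paper calls it bulk, so it can hold cells in G1 as well. The labels do not tie libraries to single animals or cultures, so p-values measure the spread between these libraries.

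Ribosomal proteins are the protein parts of the small and large ribosomal subunits, and nearly every one of them is needed in an equal number in each ribosome. Their genes are scattered over the genome, are transcribed strongly in dividing cells, and most have mRNAs that begin with a C and a run of pyrimidines, the 5′ terminal oligopyrimidine (TOP) tract through which mTOR signalling controls their translation. Many carry small nucleolar RNAs (snoRNAs), which guide the modification of ribosomal RNA, inside their introns. B cells that receive LPS enlarge and build ribosomes before they divide.

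The libraries held 88703088 to 218945191 read pairs, of which 70.9% to 75.1% were in cis. The share of read ends on X was 3.74% in the second imminent division library and 2.39% to 2.84% in the other 7, and its share on Y was 0.0488% against 0.0802% to 0.123%. The methods name male mice only, so the stated sex is uncertain for that library, and the cause was not tested. Only autosomes were used here, and counts of called members and DIs in the comparisons with imminent division are also given without that library. For interactivity against pre-S the count is given only as a range over the libraries left out. A member start bin held between 38 and 2094 read pairs per library in the class from 500 kb to under 2 Mb, with a median of 561, and all 70 bins passed the filters of every test. With 2 libraries a group, the error of each fold change rests on a spread that edgeR estimated over all 8 libraries. Replicates differed by more than sampling noise in every contact class, since the chi-square per bin between replicates of a group lay between 1.13 and 4.15 where sampling alone gives about 1.

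Promoters are shown first for Rpl5 and Rpl34, whose interactivity rose, and for Rps24, Rpl18, Rpl27a and Rpl38, whose interactivity fell, all named by the smallest p among members with a promoter entry (Rps27a, the second riser, is named only), with those of Rpl39l and Rpl10l, which lay in the inactive compartment in every library. Sequences are RefSeq's for GRCm38.p6, read along the gene's strand from 60 bases before the start to 20 bases from it on. Capitals mark a C followed by at least 5 pyrimidines between 5 bases before and 10 bases after the start, and the motif CCGGAAG of ETS family factors on either strand.
Rpl5: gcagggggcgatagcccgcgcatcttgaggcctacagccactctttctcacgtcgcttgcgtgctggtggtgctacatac
Rpl34: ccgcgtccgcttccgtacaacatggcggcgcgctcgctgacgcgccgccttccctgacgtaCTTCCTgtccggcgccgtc
Rps24: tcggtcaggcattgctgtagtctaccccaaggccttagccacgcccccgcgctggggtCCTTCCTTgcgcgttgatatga
Rpl18: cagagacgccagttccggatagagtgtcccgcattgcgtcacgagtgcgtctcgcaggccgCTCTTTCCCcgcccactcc
Rpl27a: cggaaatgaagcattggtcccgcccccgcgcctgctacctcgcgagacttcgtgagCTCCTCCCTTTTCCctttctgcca
Rpl38: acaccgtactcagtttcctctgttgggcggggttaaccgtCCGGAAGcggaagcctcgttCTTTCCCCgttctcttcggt
Rpl39l: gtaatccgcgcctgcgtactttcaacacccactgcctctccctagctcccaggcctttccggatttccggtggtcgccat
Rpl10l: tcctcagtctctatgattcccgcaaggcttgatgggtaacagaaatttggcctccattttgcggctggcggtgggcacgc

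They lie at chr5:107900468-107900547 (Rpl5, plus strand), chr3:130730379-130730458 (Rpl34, minus), chr14:24490618-24490697 (Rps24, plus), chr7:45718011-45718090 (Rpl18, plus), chr7:109519135-109519214 (Rpl27a, plus), chr11:114668520-114668599 (Rpl38, plus), chr16:10170168-10170247 (Rpl39l, plus) and chr12:66284382-66284461 (Rpl10l, minus). The RefSeq start lay 3553 bases from the GENCODE start for Rps24 and 2614 bases for Rpl18, and at most 56 bases for the other 6, and within the start bin of the member in each case. A promoter was found for 53 of the 72 members. A C followed by 5 pyrimidines stood in the window around the start of 23 of these 53 (43.4%), against 9.4% of all 32851 promoters in the table. The letters CTCTTT, read on the gene's strand from 20 bases before to 30 bases after the start, were in 10 of 53 (18.9%) against 1.84% of all, and this motif can overlap the former. CCGGAAG, on either strand of the 300 bases, was in 21 of 53 (39.6%) against 8.86%. Of the 8 promoters printed, Rpl34, Rps24, Rpl18, Rpl27a and Rpl38 have the pyrimidine run and Rpl5, Rpl39l and Rpl10l do not have it in that window. The bins are far longer than these promoters, so a contact of a bin cannot be assigned to them.

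Of the 72 members 32 (44.4%) started in bins with 3 or more protein-coding starts, against 27.8% of other genes, and most member bins lay in the active compartment. A member bin held a median of 2 protein-coding starts, at most 7, and 30 of 70 (42.9%) held 3 or more, against 12.04% of all start bins. Only 7 held no start but the member's own, so that each contact count belongs to a neighbourhood. The bin of Rps19, for example, also holds the start of Cd79a, a part of the B-cell receptor, and that of Rps18 holds H2-K1, a class I histocompatibility gene. The compartment score (the leading component of correlated cis contacts in 100 kb bins, positive for A, which holds active chromatin) was positive in all 8 libraries in 66 of 70 bins (94.3%), against 73.1% of all start bins. The exceptions were Rpl10l, at −0.67 to −0.78 in every library, and Rpl39l, at −0.21 to −0.38, both in the inactive B compartment throughout, and Rpl37a and Rps12, whose scores were positive at 3 h and 10 h. Rps12 was at 0.18 and 0.11 at 3 h, 0.08 and 0.12 in the 10 h libraries, −0.12 and −0.14 at imminent division, against −0.11 and −0.13 at pre-S. Rpl37a went from 0.17 in both 10 h libraries to −0.01 and −0.04 at imminent division and 0.02 in both pre-S libraries. No test was run on these scores.

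The ratio of contacts around the members to those around all start bins was lowest at imminent division in the classes from 150 to 1600 kb, but not at all distances. In the class from 450 to 800 kb, member bins had 1.11 and 1.10 times the mean count of all start bins at 3 h, 1.143 and 1.142 in the 10 h libraries, 1.00 and 1.01 at imminent division, against 1.079 and 1.0796 at pre-S. Both imminent division values stood under all 6 others in this class. At 150 to 200 kb the ratio was 1.25 and 1.22 in the 10 h libraries and 1.16 and 1.15 at imminent division, and in the class of the longest distances it was below 1 in every library. These ratios are descriptions, with no test.

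**Figure D1:**
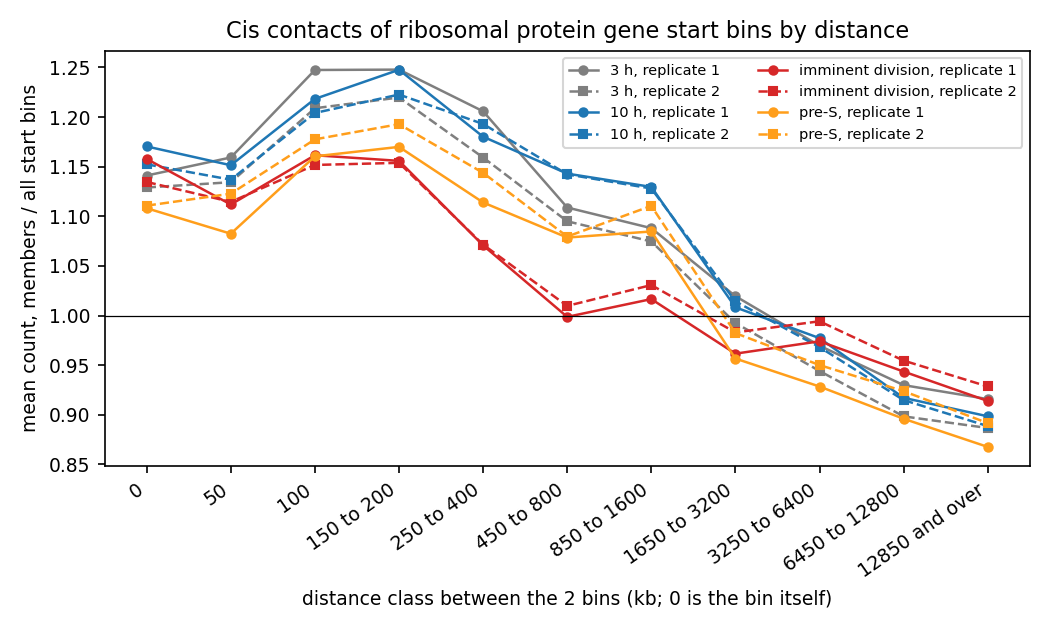
Mean cis count of the 70 ribosomal protein start bins divided by that of all start bins (y axis), by distance class in kb (x axis), with 1 line per library. At 450 to 800 kb the imminent division lines are at 1.00 and 1.01, below the 1.079 to 1.143 of the other libraries.

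Taken without any offsets, the share of a bin's read ends that fell 500 kb to under 2 Mb away (middle contacts) had a median over members of 7.98% and 8.15% at 3 h, 9.30% and 9.55% in the 10 h libraries, 8.76% and 8.78% at imminent division, against 9.64% and 9.04% at pre-S. Over all start bins it was 8.88% and 9.03% in the 10 h libraries and 9.75% and 9.53% at imminent division. The median share of the members was thus lower at imminent division than at 10 h while that of all start bins was higher. Contacts of 2 Mb and over (far) made up 29.2% and 29.6% of a member bin's read ends at 10 h and 25.9% in both imminent division libraries, and interchromosomal contacts 30.4% and 31.4%, then 35.7% and 35.8%. All start bins moved the same way in both classes, from 37.6% and 37.96% to 31.6% and 31.7% for far contacts and from 26.8% and 27.3% to 31.2% and 31.4% for interchromosomal contacts.

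The first comparison asks whether contacts of the ribosomal protein genes had changed between 3 h and 10 h after activation. Few members passed a test. Promoter interactivity, the sum of the cis contacts of a start bin that stood above a curve on distance, passed an FDR of 5% with edgeR's quasi-likelihood test for 0 of 70 members (0.572% of all start bins, of which 0.458% higher and 0.114% lower), while 4 had an unadjusted p under 0.05 and the DESeq2 Wald test called 0. Near contacts (50 to 450 kb) passed for 0 members (0.421% of all), with 11 at an unadjusted p under 0.05 and 0 by DESeq2, and interchromosomal coverage for 0 (0.0226% of all), with 5 and 0. Middle contacts rose for 5 members at 10 h (1.4% of all start bins rose) and fell for 0 (0.677% fell). The median log2 change of the members was 0.06, against −0.003 over all start bins.

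The members whose middle contacts rose by 10 h were Rps27l, Rpl4, the bin of Rps2 and Rpl3l, Rps18 and Rps25. Rps27l, a paralog of Rps27 that p53 induces, had 734 and 714 normalised read pairs at 3 h and 895 and 884 at 10 h (log2 change 0.30, SE 0.065, edgeR FDR 0.0145). Rpl4, a large subunit protein, had 803 and 859 at 3 h and 1001 and 1016 at 10 h (0.27, SE 0.061, FDR 0.0159). The groups did not overlap in either. Here and below, members and pairs named for a call were picked by the smallest p, so a lack of overlap adds no support. Normalised counts here and below are counts after the library offsets, which put the typical start bin at no change. Without the second 3 h library or either 10 h library 0 members were called, and without either pre-S library, which enters through the shared spread, 2 were. The far contacts of Rps3, which binds mRNA near its entry to the small subunit, were the only ones to fall by 10 h (0.556% of all start bins fell, 0.233% rose and 0.789% did either), from 2551 and 2448 to 2150.2 and 2172 (log2 change −0.21, SE 0.043, edgeR FDR 0.0486). This call was lost when either library of 3 h, 10 h or pre-S was left out and with a replicate block, and 3 members fell without either imminent division library. DESeq2 called 1 member for far contacts and 2 for middle contacts, and with bin coverage in the offsets middle contacts rose for 8 and fell for 1 and far contacts rose for 1 and fell for 3.

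The second comparison asks how the genes' contacts differed between imminent division and 10 h. Interactivity rose for 9 of 70 members (25.1% of all start bins rose) and fell for 23 (24.5% fell, 49.6% either way), and 38 did not pass. Among the members that rose were Rpl5, which with Rpl11 holds the 5S ribosomal RNA, Rps27a, made as a fusion with ubiquitin, Rpl34, Rpl24, Rpl7, Rps23 of the decoding centre, Rpl27 and Rpl23. Among those that fell were Rps24 and Rps19, both mutated in Diamond-Blackfan anaemia, Rpl18, Rpl27a, Rpl38, known for its part in the translation of Hox mRNAs, Rpl39l, Rpl31 and Rpl37a. The median log2 change was −0.053 over members and −0.002 over all start bins.

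For Rpl5, interactivity in normalised read pairs was 1734 and 1741 in the 3 h libraries and 1784 and 1664 in those of 10 h. It was 2258 and 2230.1 at imminent division and 1990.4 and 2009.7 in pre-S cells. Both imminent division libraries lay above all others, with a log2 change from 10 h of 0.38 (SE 0.041, edgeR FDR 9.59e-10). For Rps27a it was 1202 and 1289 at 3 h, 1225 and 1288 in the 10 h libraries, 1528 and 1451 at imminent division, against 1457 and 1409 at pre-S. The 33 h libraries of Rps27a were all above the 3 h and 10 h libraries (log2 change at imminent division 0.24, SE 0.046, edgeR FDR 3.87e-05). Rps24 had 2369.6 and 2322 at 3 h, 2235 and 2357 in the 10 h libraries, 1779 and 1852 at imminent division, against 2156 and 2074 at pre-S. Its imminent division libraries were the lowest (log2 change −0.34, SE 0.040, edgeR FDR 1.01e-08). Rpl18 had 1933 and 1850.0 at 3 h, 1963 and 1901 in the 10 h libraries, 1583 and 1594 at imminent division, against 1549.8 and 1627 at pre-S. All 4 libraries at 33 h were below those before (log2 change at imminent division −0.28, SE 0.042, edgeR FDR 6.12e-07).

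**Figure D2:**
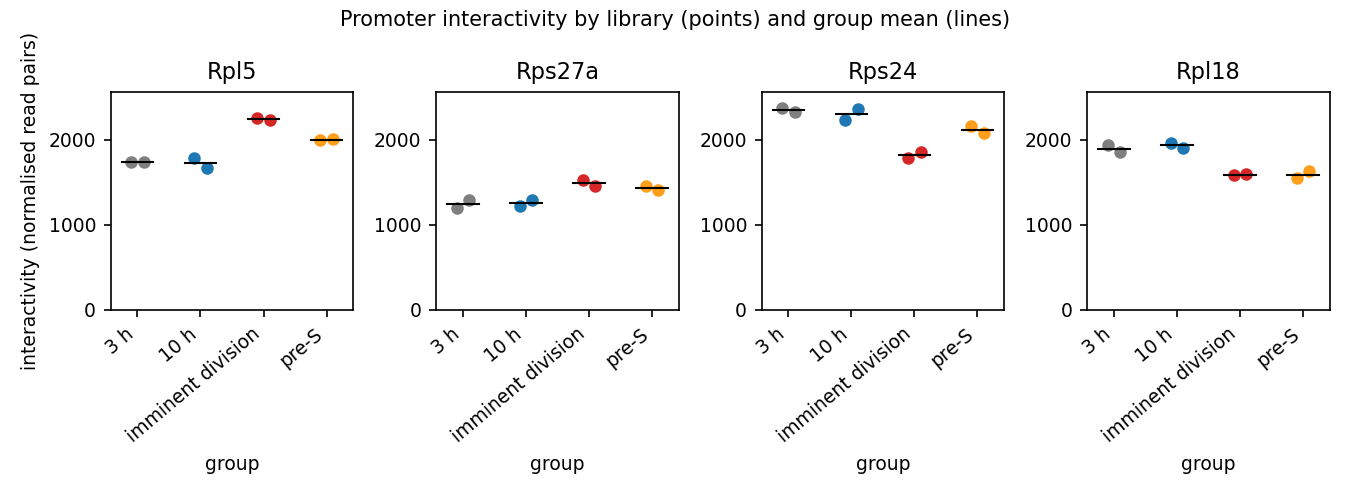
Promoter interactivity in normalised read pairs (y axis) of Rpl5, Rps27a, Rps24 and Rpl18 by group (x axis), with a point per library and a line at the mean of 2. Rpl5 is highest at imminent division, with 2258 and 2230.1, and Rps24 lowest there, with 1779 and 1852.

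The other named members rose by 0.13 (Rpl27 and Rpl23) to 0.20 (Rpl24) on the log2 scale or fell by 0.19 (Rpl37a) to 0.35 (Rpl38). Rpl23 turned to −0.005 when all cis contacts were summed without the curve. With each bin's coverage in the offsets 8 members rose and 8 fell, DESeq2 called 6 and 14, and without the first 10 h library 5 rose and 13 fell. Without the second imminent division library 10 rose and 19 fell. The edgeR FDR was then 3.75e-08 for Rpl5, 1.72e-07 for Rps24 and 0.000438 for Rps19, and over all contact classes 38 of the 40 named calls against 10 h were kept, other than Rpl23 here (0.0714) and Rpl34 in interchromosomal coverage (0.0619). By subunit, with the 2 shared bins counted in both, 7 of 43 large subunit bins rose and 16 fell, and 2 of 29 small subunit bins rose and 8 fell. Of 24 bins whose members carry snoRNAs 2 rose and 7 fell, and of the 46 others 7 rose and 16 fell.

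Near contacts rose for 8 members (18.9% of all start bins rose) and fell for 21 (18.8% fell), with a median log2 change of −0.05 against 0.003 over all. Rpl5 led the risers again, with 1838 and 1761 in the 10 h libraries and 2225 and 2206 at imminent division (log2 change 0.30, SE 0.041, edgeR FDR 7.23e-07), followed by Rpl7 (0.24) and Rps27a (0.19). Rps9 led those that fell, from 566 and 534 to 388 and 383 (−0.51, SE 0.067, edgeR FDR 3.33e-07), followed by Rps10 (−0.28) and Rps7 (−0.32), and the groups did not overlap in any of the 6. Of small subunit bins 12 of 29 fell and 2 rose, and of large subunit bins 10 of 43 fell and 6 rose. Without the first 10 h library 3 members rose and 11 fell, without the second 4 and 10, with imminent division replicate 2 left out 7 and 13, with TMM factors 10 and 34, and with DESeq2 5 and 30. With bin coverage in the offsets fewer were called in all, as given below. Shares of all start bins beside counts of members belong to the main fit. Those under other settings are not given for counts per start bin.

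Middle contacts fell for 33 of 70 members (25.7% of all start bins fell) and rose for 12 (25.7% rose), with a median log2 change of −0.14 over members and 0.0001 over all start bins. Those that fell came from both subunits, with 19 of 43 large subunit and 16 of 29 small subunit bins, and 24 of the 33 passed whichever library was left out. The numbers were 11 higher and 31 lower without the second imminent division library, and between 26 and 36 were lower when any 1 library was left out. Gene-dense bins without a member, a set chosen after values were seen, gave a share close to this, since 734 of 1572 bins with 3 or more starts fell (46.7%, beside 47.1% of the members) and 229 rose, at a median of −0.14.

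Rps19 had 397 and 381 normalised middle read pairs at 3 h, 381 and 375 in the 10 h libraries, 231 and 236 at imminent division, against 273 and 262 at pre-S. All its 33 h libraries lay below the earlier ones, and the log2 change from 10 h to imminent division was −0.69 (SE 0.080, edgeR FDR 5.85e-08). Rps15, which is needed for the last steps and the export of the small subunit, had 661 and 581 in the 10 h libraries and 391 and 422 at imminent division (−0.60, SE 0.074, FDR 1.58e-07). Rpl36 went from 492 and 525 to 346 in both libraries (−0.56, SE 0.073, FDR 3.44e-07). Rpl7, against these, rose from 585 and 602 to 797 and 812 (0.44, SE 0.065, edgeR FDR 2.54e-06). Rps7, a regulator of Mdm2 as well as a small subunit protein, rose from 211 and 217 to 289 and 304 (0.47, SE 0.087, edgeR FDR 5.8e-05). The groups did not overlap in these 5 members. Rps7 had fewer near and more middle contacts, so its classes moved in opposite directions. Both classes fell for 15 members (8.03% of all start bins) and rose for 2 (7.64%), and 4 moved in opposite directions (3.95%).

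**Figure D3:**
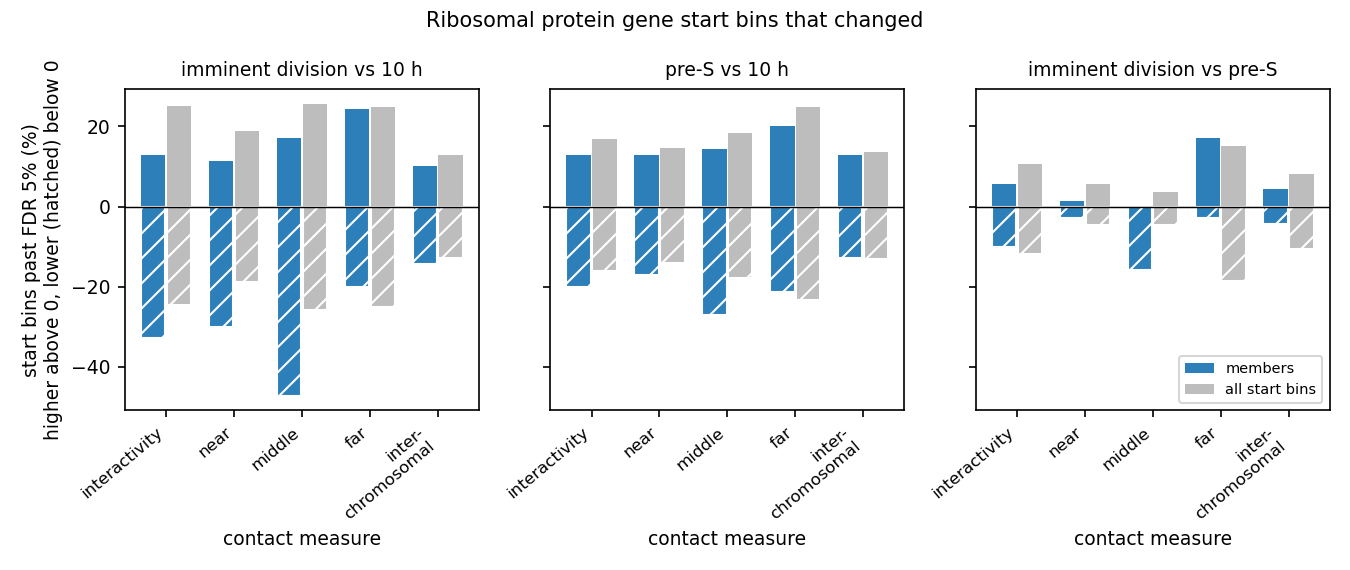
Percent of start bins past an edgeR FDR of 5% (y axis, higher above 0 and lower hatched below 0) for the 70 ribosomal protein bins and all start bins, by contact measure (x axis) in 3 comparisons. Middle contacts at imminent division fell in 47.1% of the ribosomal protein bins and 25.7% of all start bins.

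**Figure D4:**
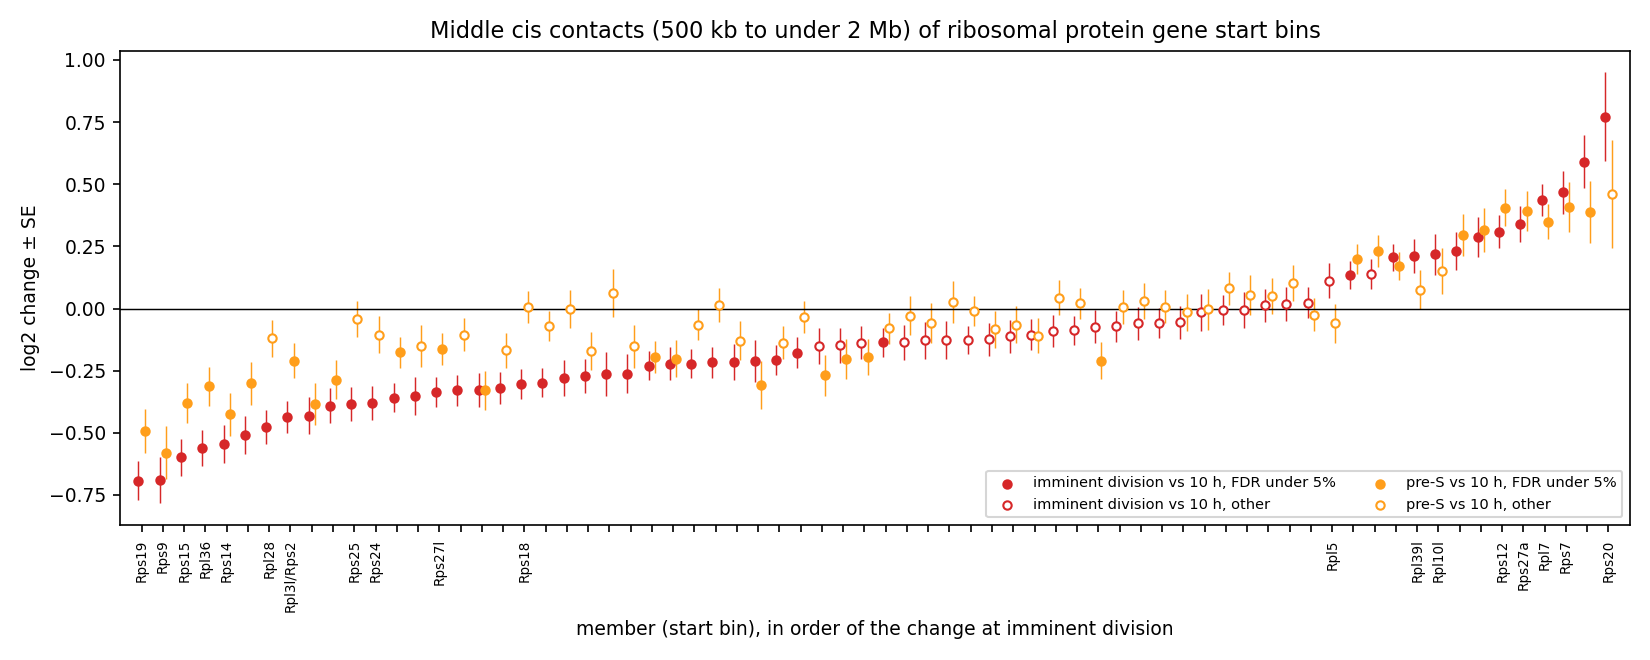
Log2 change of middle contacts from 10 h (y axis, with bars of 1 SE) for each of the 70 ribosomal protein bins (x axis), at imminent division and at pre-S, with filled points past an FDR of 5% and names for some of the members described in the text. At imminent division 33 bins fell and 12 rose, with Rps19 and Rps9 at the low end and Rps20 at 0.77. Rps20 had the fewest middle read pairs of the members. Normalised, they were 70.5 and 73.0 at 3 h, 54.0 and 44.0 at 10 h and 94.2 and 71.9 at imminent division.

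Far contacts rose for 17 members (24.8% of all start bins rose) and fell for 14 (25.1% fell, 49.8% either way). Rpl35, which lies by the exit tunnel for the new protein, rose from 2667 and 2717 to 3434 and 3352 (log2 change 0.33, SE 0.036, edgeR FDR 1.81e-05). Rps27 rose by 0.39 and Rps29 by 0.37 on the same scale. These changes are relative to the typical start bin, whose far share fell. Without offsets the far share of read ends of Rpl35 was 39.5% and 40.5% at 10 h. At imminent division it was 39.9% and 39.5%. For Rps29 it went from 38.1% and 36.1% to 36.7% and 36.9%, and for Rps27 from 19.9% and 20.8% to 21.8% and 22.9%. Rps3 fell further, from 2150.2 and 2172 to 1549 and 1620.1 (−0.45, SE 0.044, edgeR FDR 1.02e-05), Rpl13 changed by −0.32 and Rps10 by −0.29. There were 9 members with fewer middle but more far contacts (5.84% of all start bins) and 7 with fewer of both (7.45%). Without the second imminent division library far contacts rose for 15 and fell for 16. These numbers were 24 and 12 when the offsets held bin coverage. Interchromosomal coverage rose for 7 (12.9% of all rose) and fell for 10 (12.8% fell). Those named are Rpl24 (log2 change 0.19), Rps13 (0.15) and Rpl34 (0.16) among the risers and Rpl7 (−0.26), Rps7 (−0.24) and Rps24 (−0.21) among the others. For Rpl7 it was 1959 and 1990.4 in the 10 h libraries and 1701 and 1607 at imminent division (SE 0.040, edgeR FDR 0.000304). Only 1 rose and 3 fell without the first 10 h library, 2 and 6 without the second, 3 and 8 without the first imminent division library, 5 and 5 without the second, and DESeq2 called 2 and 6.

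Differential interactions (DIs) are single pairs of bins whose count changed. Of 1456477 bin pairs tested, 4830 had a member bin as an anchor, with a median distance of 1050 kb between the anchors. Between 3 h and 10 h 0 of these were DIs by edgeR (0.000618% of all bin pairs), with 361 at an unadjusted p under 0.05. Between 10 h and imminent division 235 weakened (1.3% of all bin pairs and 2.09% of pairs with a start bin weakened) and 23 strengthened (0.685% and 0.689%). The share of member pairs that weakened was 4.87% and the share that strengthened 0.476%. DIs were not counted for gene-dense bins without a member, so these shares cannot be called particular to the members. The weaker DIs belonged to 54 of the 70 bins and spanned a median of 750 kb, and 184 of 235 had another protein-coding start at the far anchor. The stronger DIs belonged to 16 bins and spanned a median of 200 kb, and 8 of 23 had such a start. The share of all tested member pairs with such a start is not given, so these counts cannot be set against it. Rps27l had 12 weaker DIs, Rpl9 and Rps15 11 each and Rps24 10.

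The DI with the smallest p joined the bin of Rps18 and H2-K1 (chr17:33950073-34000351) to a bin 400 kb away that starts at position 34350157 and holds the starts of Btnl2, Btnl1 and BC051142. It had 80.2 and 63.6 normalised read pairs at 3 h, 98.6 and 101 in the 10 h libraries, 50.5 and 38.8 at imminent division, against 70.1 and 63.4 at pre-S (log2 change −1.18, edgeR FDR 5.66e-07). The imminent division libraries were below all others. Rps15 and a bin 600 kb away with Lsm7, Sppl2b and Tmprss9 went from 63.3 and 50.8 to 19.3 and 20.7 (−1.49, edgeR FDR 3.97e-06). Rps25 weakened with Fxyd6 and Fxyd2 950 kb away (−1.81), and Rpl18 with Scaf1 and Rras 700 kb away (−1.57), and the 10 h and imminent division libraries did not overlap in any of the 4. The clearest stronger DI joined Rps29 to a bin 150 kb away with no protein-coding start, at 0 and 2.9 in the 10 h libraries and 16.4 and 14.1 at imminent division (log2 change 3.12, which rests on few read pairs and on the prior count, edgeR FDR 0.000686). Rpl4, Rpl34 and Rpl31 gained contacts with bins 50 kb, 50 kb and 200 kb away (0.43, 0.41 and 1.03).

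The DI counts changed with the libraries used. Leaving out 10 h replicate 1 gave 62 weaker and 1 stronger, replicate 2 24 and 2, imminent division replicate 1 79 and 7, and its replicate 2 107 and 7. Of the 235 weaker DIs 8 passed whichever library was left out, and of the 23 stronger ones 0. With TMM factors 361 weakened and 31 strengthened. When the offsets held bin coverage 260 weakened, 5.38% of member pairs beside 2.15% of all pairs and 3.35% with a start bin. With that setting 69 strengthened (1.43%, beside 1.61% and 1.36%), a share near that of pairs with a start bin. The shares under the other settings of this paragraph are not given.

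The third comparison sets pre-S against 10 h, and shares the 10 h libraries with the second. Interactivity rose for 9 members (16.8% of all start bins rose) and fell for 14 (16% fell). The risers were led by Rpl34, with 2491 and 2562 at 10 h and 2932 and 2973 at pre-S (log2 change 0.22, SE 0.040, edgeR FDR 5.9e-05), and Rpl24, which bridges the subunits (0.24, SE 0.045, FDR 9.87e-05). Rps23, Rpl5, Rpl37, Rpl35, Rps27a and Rpl7 rose by 0.14 to 0.22. Rpl18 fell most clearly (−0.28, SE 0.046, edgeR FDR 1.54e-05). Rps3 went from 2329 and 2353 to 1983 and 2084 (−0.21, SE 0.042, edgeR FDR 0.000317). Rps19, Rpl7a, Rpl27a and Rpl13 fell by 0.15 to 0.22, and Rps9 changed by −0.80 from counts of 74.0 and 81.3 to 40.04 and 49.98. Without the first pre-S library 4 members rose and 5 fell, and without the first 10 h library 6 and 8. With TMM factors 8 rose and 23 fell, and DESeq2 called 6 and 17. Without the curve more members were called in all, as given below.

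Middle contacts fell for 19 members at pre-S (17.8% of all start bins fell) and rose for 10 (18.3% rose), at a median of −0.06 against −0.006 over all. Rps19 again had the smallest p of those that fell (log2 change −0.49, SE 0.089, edgeR FDR 0.000137), followed by Rps9 (−0.58) and Rps14 (−0.43), whose loss of 1 copy marks the 5q deletion syndrome. Rps12 rose from 523 and 538 to 699 and 709 (0.41, SE 0.074, edgeR FDR 0.000149), Rps27a by 0.39 and Rpl7 by 0.35. Without the first pre-S library 5 rose and 6 fell, without the second 8 and 11, without the first 10 h library 7 and 12 and without the second 5 and 10. Near contacts rose for 9 (14.6% of all rose) and fell for 12 (14.0% fell). Rpl5 (0.27), Rps27a (0.29) and Rpl34 (0.21) led the one direction and Rps9 (−0.56), Rps7 (−0.37) and Rps24 (−0.33) the other, though Rps24 stood at 0.17, not past the threshold, with bin coverage in the offsets. Without the first pre-S library 4 rose and 3 fell, and without the first or second 10 h library 4 and 5 or 5 and 8. With TMM factors 8 rose and 29 fell, and with DESeq2 8 and 25. With bin coverage in the offsets fewer members were called in all, as given below.

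Far contacts rose for 14 members at pre-S (24.8% of all rose) and fell for 15 (23.4% fell, 48.2% either way). Rps3 fell from 2150.2 and 2172 to 1409.6 and 1496 (log2 change −0.57, SE 0.047, edgeR FDR 3.63e-05), so that it was lower in all 33 h libraries than in any earlier one. Rps10 (−0.38) and Rpl3 (−0.40), a protein of the peptidyl transferase centre, followed, and Rpl24 (0.24), Rpl10l (0.37) and Rps26 (0.26) rose. Without offsets the far share of read ends of Rpl10l fell, from 48.6% and 49.8% at 10 h to 45.6% and 46.2% at pre-S. For Rpl24 it was 27.2% and 27.9%, then 27.3% and 27.5%. For Rps26 it was 20.2% and 19.3%, then 21.9% and 21.0%. Without the first pre-S library 9 rose and 8 fell, and without the first or second 10 h library 9 and 9 or 7 and 12. With bin coverage in the offsets 21 rose and 15 fell, and DESeq2 called 9 and 16. Interchromosomal coverage rose for 9 (13.6% of all rose) and fell for 9 (13.0% fell), with Rpl5 (0.20), Rps13 (0.18) and Rpl29 (0.19) higher and Rps24 (−0.28), Rpl37a (−0.28) and Rps9 (−0.25) lower. Leaving out 1 library of either group gave between 6 and 11 calls. At pre-S 24 of 4830 member pairs were weaker DIs (0.252% of all bin pairs and 0.332% of those with a start bin) and 5 stronger (0.341% and 0.128%), so that both members and start bins had more weaker than stronger DIs. With bin coverage in the offsets this turned for both, to 10 weaker (0.389% and 0.217%) and 15 stronger (0.218% and 0.251%), and with TMM factors the counts were 56 and 2. The weaker ones included Rps18 with H2-DMa, Brd2 and H2-DMb2 150 kb away, at 150.7 and 130.9 at 10 h and 83.1 and 88.9 at pre-S (log2 change −0.70, edgeR FDR 0.00803, or 0.251 with the first pre-S library left out), and Rpl12 with a bin 3200 kb away (−2.52). The stronger ones included Rpl27a (0.82), Rpl10l (0.62), Rps12 (0.62) and Rpl37a (0.70), and between 1 and 7 DIs in all were called when 1 library of either group was left out.

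The fourth comparison, imminent division against pre-S, tests directly where the 2 groups at 33 h differ. Imminent division cells were not sorted by cell cycle state, so the 2 groups need not be separate states. Middle contacts were lower at imminent division for 11 members (4.54% of all start bins were lower) and higher for 0 (3.54% were higher, 8.09% either way), at a median log2 change of −0.08 against −0.001 over all. Rpl28 had 510.4 and 516 normalised read pairs at pre-S and 399 and 401 at imminent division (−0.36, SE 0.072, edgeR FDR 0.00215). Rps18 had 761 and 752, then 628 and 595 (−0.31, SE 0.064, FDR 0.00284), and Rps25 620.3 and 572, then 460.4 and 482 (−0.34, SE 0.071, FDR 0.00284). At 10 h the same bins had 576 and 543, 739.8 and 766, and 614 and 617, and at 3 h 539 and 519, 642 and 623, and 538 and 495, so that the pre-S libraries of Rps18 and Rps25 overlapped or straddled those at 10 h and the pre-S libraries of Rpl28 lay below them. The 3 h values of Rps18 and Rps25 lay nearer to those at imminent division, and of these 11 members 0 passed whichever library was left out. The count was 2 and 3 lower without the first or second pre-S library and 5 and 6 without the first or second imminent division library. With TMM factors 12 were lower and 2 higher, with bin coverage in the offsets 17 and 2, and DESeq2 called 5 lower. With a replicate block fewer members were called for middle and for far contacts, as given below.

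Far contacts were higher at imminent division for 12 members, a share near that of all start bins (15% were higher, 33.5% in either direction), and lower for 2 (18.5% were lower). Of the 12, 2 passed whichever library was left out. Rps27l had 1861 and 1890.2 at pre-S and 2222 and 2337 at imminent division (log2 change 0.28, SE 0.047, edgeR FDR 0.00165), and Rps29 (0.24) and Rps27 (0.21) were higher too. Without offsets the far share of read ends of Rps27l was 26.2% in both pre-S libraries and 26.6% and 26.5% at imminent division. For Rps29 it was 37.0% and 35.7%, then 36.7% and 36.9%. For Rps27 it was 21.6% in both, then 21.8% and 22.9%. The members that were lower were Rpl39l (−0.21) and Rpl10l (−0.34). Without the first pre-S library 2 were higher and 2 lower, and without the second imminent division library 7 and 2. Interactivity was higher for 4 (10.6% of all start bins) and lower for 7 (11.8%, or 22.4% either way). Rpl5 (0.17), Rpl23 (0.15), Rps9 (0.56, on counts of 52.7 and 78.8 against 40.04 and 49.98) and Rpl35a (0.14) were higher, and Rps24 (−0.22), Rpl39l (−0.21), Rpl10l (−0.33), Rpl38 (−0.19), Rpl15 (−0.16), Rps29 (−0.10) and Rpl8 (−0.11) were lower. Rps9 turned to −0.05 with TMM factors and −0.07 in DESeq2, and Rpl15, Rps29 and Rpl8 turned to 0.01, 0.03 and 0.01 without the curve. The split of interactivity calls was 9 higher and 9 lower with TMM factors, 5 and 5 in DESeq2 and 10 and 7 with bin coverage in the offsets. Near contacts were higher for 1 member (5.54% of all start bins) and lower for 2 (4.61%, or 10.2% either way), with Rpl39l higher (0.29, but −0.08 with bin coverage in the offsets) and Rps20 (−0.20) and Rps16 (−0.16) lower. With bin coverage 4 were higher and 3 lower, and with TMM factors 1 and 0. Interchromosomal coverage differed for 6 (18.8%), with Rpl39l (0.20), Rps9 (0.20) and Rpl22 (0.15) higher and Rpl23a (−0.16), Rpl27 (−0.16) and Rps18 (−0.13) lower. TMM factors gave 1 higher and 3 lower, and DESeq2 1 and 2. The interactivity count fell to between 4 and 7 when 1 library of either group was left out, the near count to 0 without the first pre-S library and 1 without the second imminent division library (5 without the first, and 6 without either 3 h library), and the interchromosomal count to 2 without the first pre-S library and 3 without the second imminent division library. Without that library 18 of the 28 named calls between these groups were kept, and those lost were Rpl23, Rps9, Rpl35a, Rpl10l and Rps29 for interactivity, Rps20 and Rps16 for near contacts, and Rps9, Rpl22 and Rps18 for interchromosomal coverage.

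Between pre-S and imminent division 10 member DIs were weaker at imminent division (0.214% of all bin pairs and 0.148% of those with a start bin) and 6 stronger (0.142% and 0.14%). Those with the smallest p were weaker contacts of Rpl3 with Pick1 850 kb away (log2 change −1.20), Rps18 with Zfp870 1100 kb away (−1.65), Rps25 with Tmprss13 900 kb away (−1.27) and Rpl8 with Dgat1 400 kb away (−0.66), and stronger contacts of Rpl29 with Iqcf1 and Iqcf5 100 kb away (0.93), Rps27l (1.64), Rpl9 (0.55) and Rpl34 (1.085). The pair of Rpl29 had 82.1 and 77.5 at imminent division, against 42.0 and 41.3 at pre-S (edgeR FDR 0.00472). Without the first pre-S library 1 was called, without the second 8, and without the first or second imminent division library 10 and 5. With bin coverage in the offsets 102 member pairs were weaker (0.906% of all bin pairs and 1.44% of those with a start bin) and 9 stronger (0.749% and 0.324%). Among bin pairs over 8-fold the interchromosomal background, in place of 4-fold, 21 were weaker (0.709% and 0.497%) and 8 stronger (0.384% and 0.465%).

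Ribosomal protein genes of different chromosomes met each other more often than expected in every library. The expected count of 2 bins was taken from the contacts of each bin with the other's chromosome. Among the 2256 pairs of member bins on different autosomes the 3 h libraries held 266 and 442 read pairs, the 10 h libraries 279 and 400, the imminent division libraries 410 and 542 and the pre-S libraries 254 and 250. Observed over expected was 2.24 (95% exact Poisson interval 1.98 to 2.53) and 2.26 (2.05 to 2.48) at 3 h, 2.11 (1.87 to 2.37) and 2.30 (2.08 to 2.54) in the 10 h libraries, 1.88 (1.70 to 2.07) and 1.91 (1.75 to 2.08) at imminent division, and 2.17 (1.91 to 2.46) and 2.08 (1.83 to 2.36) at pre-S. The imminent division libraries had the lowest ratios, and their intervals overlapped those of every other library but the second at 10 h. With windows of 150 kb around each start bin the second pre-S library, at 1.77, lay between them, at 1.83 and 1.74. The intervals cover counting error only, and since no molecular identifiers were counted, separate read pairs need not be separate molecules.

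Other sets of start bins were enriched as well. The ratio lay between 1.198 and 1.255 over all start bins, between 1.46 and 1.62 over those in A in every library, and between 1.76 and 1.99 over those with 3 or more starts. It was 2.03 to 2.53 among the translation factor genes, 1.58 to 2.09 among mitochondrial ribosomal protein genes and 1.58 to 2.00 among ribosome biogenesis factor genes. The members lay above all start bins in each library, but over the libraries their range overlapped those of bins with 3 or more starts and of all the other gene lists. In the first 10 h library the mitochondrial ribosomal protein genes, at 2.09 (1.86 to 2.34), lay beside the members at 2.11. By member, summed over libraries, the ratio with all other members had a median of 2.03, and its interval was above 1 in 60 of 70 bins. The level of all start bins was itself above 1, and some of these intervals reached it, as that of Rpl17 from 1.03. No such count was made over other start bins. The ratio was highest for Rps15, with 127 read pairs (3.34, interval 2.78 to 3.97), reached 3.02 for Rpl18, and was lowest for Rpl39l, with 11 read pairs (0.359, interval 0.179 to 0.641), and Rpl10l, with 7 (0.495, interval 0.199 to 1.02), the members in B throughout.

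**Figure D5:**
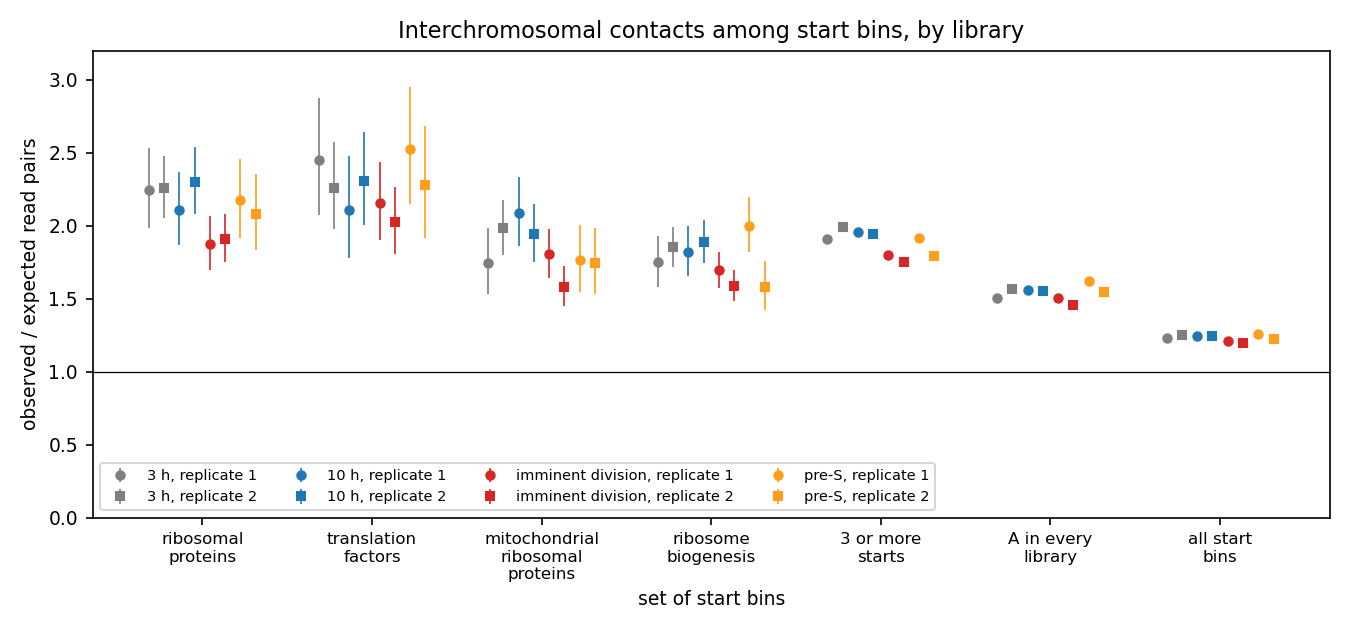
Observed over expected interchromosomal read pairs among the start bins of each set (x axis), with a point per library and bars for the 95% exact Poisson interval. The ribosomal protein bins lie between 1.88 and 2.30 and all start bins between 1.198 and 1.255.

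The read pairs were spread over many pairs of genes. Of the 2256 pairs 1281 had any read pair in the 8 libraries together, and the most for a pair was 11, between Rpl12 on chromosome 2 and Rpl23a, which docks the signal recognition particle, on chromosome 11. Of these 11, 6 came from the second imminent division library, which gave 2 or 3 of the 10 in each of the pairs named next. Among the next, with 10 each, were Rps20 with Rpl37, Rpl23 with Rps28 and Rpl23 with Rps18. Without the 5 pairs that had the most the mean ratio was 2.22 at 3 h and 1.86 at imminent division. By subunit the ratio ranged from 1.83 to 2.37 among large subunit bins and from 1.73 to 2.81 among small subunit bins over the libraries.

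The insulation score, the log2 of the mean count across a bin within 500 kb over the chromosome mean, is lower where fewer contacts cross a bin. Its median over members was 0.30 and 0.22 at 3 h, 0.30 and 0.29 in the 10 h libraries, 0.09 and 0.15 at imminent division, against 0.12 and 0.14 at pre-S. All 4 libraries at 33 h lay below the 4 earlier ones. Over all start bins the medians were 0.11 and 0.04, 0.09 in both, −0.01 and 0.03, and −0.01 and 0.01 in the same order, so the level of the members was above that of all start bins in each library. With a window of 250 kb imminent division stood above pre-S, as given below. No test was run on this score.

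Among the members are paralogs with restricted expression. Rpl10l and Rpl39l, which are expressed mainly in testis, were the members in B in every library. Rpl10l had 276 and 234 interactivity read pairs in the 10 h libraries, 208 and 201 at imminent division, against 247 and 268 at pre-S (imminent division against pre-S −0.33, SE 0.096, edgeR FDR 0.0104, or 0.0731 without the second imminent division library), and its far contacts were 1705 and 1723, 1860.0 and 1652, and 2193 and 2248. The pre-S libraries were highest for these far contacts, but with bin coverage in the offsets the change from 10 h was −0.04. Without offsets the far share of its read ends was lower at pre-S than at 10 h, as given above. Rpl39l had 1373 and 1358 interactivity read pairs in the 10 h libraries, 1157 and 1167 at imminent division, against 1349 and 1336 at pre-S, so that imminent division stood apart. Its middle contacts rose at imminent division (0.21, SE 0.068, edgeR FDR 0.0102), as did those of Rpl10l (0.22, FDR 0.0284). Rps27l had fewer middle contacts at imminent division than at 10 h, with 731 and 679.6 against 895 and 884 (−0.34, SE 0.060). At 3 h it had 734 and 714. Its far contacts were higher than at 10 h (0.36, SE 0.046). Rpl3l, expressed in muscle, cannot be separated from Rps2 in the bin they share. Middle contacts there were 600 and 593 at 3 h, 698 and 739 in the 10 h libraries and 548 and 517 at imminent division (change from 10 h −0.44, SE 0.065).

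Genes of related function were counted in the same way for middle contacts at imminent division against 10 h. Over all start bins 25.7% fell and 25.7% rose. Of 77 bins of mitochondrial ribosomal protein genes 33 fell and 13 rose (median log2 change −0.09). Of 51 bins of translation factor genes 18 fell and 8 rose (−0.11), and of 102 bins of ribosome biogenesis factor genes, 2 of which are also member bins, 37 fell and 20 rose (−0.07). For imminent division against pre-S the counts were 9 lower and 1 higher, 2 lower and 1 higher, and 8 lower and 4 higher. Over all start bins 4.54% were lower and 3.54% higher there. No test compared these lists with the members.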

How the data were processed

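The deposited files hold raw counts of read pairs per pair of 50 kb bins, 1 symmetric matrix per library. The authors aligned reads to mm10 with diffHic, marked duplicates, removed dangling ends and long fragments and counted the rest, and the whole numbers show no balancing. Bins were rebuilt from the MboI fragments of GRCm38 (53357 bins, as in each matrix) and genes placed by GENCODE M21. Of 48088 autosomal bins 756 were left out for undetermined sequence over 10% or interchromosomal coverage over 4 times or under 1/4 of the median, and 13301 of the 47332 kept hold a protein-coding start. No blacklist was applied, so blacklisted regions that passed these filters were kept.

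Counts per start bin were fitted over all 8 libraries with edgeR 4.0.16 (legacy robust quasi-likelihood, no dispersion trend, sum of at least 200, loess offsets) in R 4.3.3, and adjusted by Benjamini-Hochberg over all start bins. Interactivity summed those cis pairs that exceeded a curve on distance by 2 times its mean absolute residual (0.303, log2). The curve was the mean log2 abundance at each distance, over pairs with a start bin and a count. The study fitted a loess curve instead. DIs used bin pairs over 4-fold the interchromosomal background, with a dispersion trend and separate offsets under and over 1.5 Mb. The fits per start bin and per bin pair were also run on simulated counts. These held changes at imminent division against 10 h only and the same dispersion in every library, and their outcome is not given here. Alternatives were TMM, DESeq2 1.42.0, no count filter, a replicate block, bin coverage in the offsets, 8-fold background and leaving out each library.

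The members, lists and tests were chosen with earlier results of these data known. Named members were, per comparison, those with the smallest p past an FDR of 5% in each direction (8 for interactivity, 3 for the other classes, 4 for DIs), the 5 pairs with the most read pairs, members ending in l and members sharing a bin. Some of these are not reported here. The other lists were mitochondrial ribosomal proteins, translation factors and ribosome biogenesis factors. Depth, and so precision, differed between libraries by the totals given above.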

Additional observations from a re-analysis of the deposited data

Results flagged for a closer look

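The difference between imminent division and pre-S was itself tested by edgeR, and some members' change from 10 h differed between these groups in each contact class at an FDR of 5%. There were 11 such members of 70 for interactivity (22.4% of all start bins), 3 for near contacts (10.2%), 11 for middle contacts (8.09%), 14 for far contacts (33.5%) and 6 for interchromosomal coverage (18.8%). The share of members was above that of all start bins in the middle class and below it in the other classes. All 11 of the middle contacts were lower at imminent division, and 12 of the 14 far contacts were higher. Whichever library was left out, 0 of these 11 and 2 of these 12 still passed. Mouse strain and sort gate differ between these groups as well, and their part in the differences cannot be told apart.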

How the results depend on the processing

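Of the named members' results under the alternatives, 1290 kept direction and side of the threshold, 182 kept direction but did not pass, and 9 turned sign. Most of these results came from fits that left out 1 library. With bin coverage in the offsets 65 were kept, 26 did not pass and 3 turned sign. With DESeq2 these numbers were 87, 24 and 1, and without the curve 28, 11 and 4. Counts of called members, given in all (main value first) and without the share of all start bins under the same setting, moved over 1.5 times as follows. With TMM factors, interactivity at imminent division against pre-S went from 11 to 18, near contacts from 29 to 44 (imminent division against 10 h), 21 to 37 (pre-S against 10 h) and 3 to 1 (imminent division against pre-S), far contacts at 10 h against 3 h from 1 to 2, interchromosomal coverage at pre-S against 10 h from 18 to 11, and DIs from 258 to 392 and, at pre-S against 10 h, 29 to 58. With DESeq2, interactivity at imminent division against 10 h went from 32 to 20, near contacts from 21 to 33 at pre-S against 10 h and 3 to 0 at imminent division against pre-S, middle contacts from 5 to 2 (10 h against 3 h) and 11 to 5 (imminent division against pre-S), and interchromosomal coverage from 17 to 8, 18 to 11 and 6 to 3 in the last 3 comparisons. With bin coverage in the offsets, interactivity went from 0 to 1, 32 to 16 and 11 to 17 (10 h against 3 h, imminent division against 10 h, imminent division against pre-S), near contacts from 29 to 19, 21 to 12 and 3 to 7, middle contacts from 5 to 9 and 11 to 19, far contacts from 1 to 4, and DIs from 0 to 3 and 16 to 111. Without the curve, interactivity at pre-S against 10 h went from 23 to 37. At 8-fold over background, where 2150 member pairs were tested in place of 4830, DIs went from 29 to 49 and 16 to 29. The cause was not tested.

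Replicate numbers did not pair the libraries across all groups (correlations of same-numbered deviations from −0.649 to 0.360, 4 of 30 over 0.1). Between imminent division and pre-S the correlation was 0.360 for far contacts, 0.273 for interchromosomal coverage and 0.141 for middle contacts. It was 0.080 for near contacts and 0.051 for interactivity. With a replicate block middle contacts went from 5 to 2 (10 h against 3 h) and 11 to 7 (imminent division against pre-S), and far contacts from 1 to 0 and 14 to 9; of 112 named results 105 kept their call.

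Leaving out each library in turn gave, in the order imminent division against 10 h, pre-S against 10 h and imminent division against pre-S, 18 to 34, 9 to 26 and 4 to 15 calls for interactivity, 14 to 33, 7 to 24 and 0 to 6 for near, 34 to 49, 11 to 31 and 2 to 13 for middle, 24 to 33, 17 to 30 and 4 to 18 for far, 4 to 17, 6 to 18 and 2 to 8 for interchromosomal coverage and 26 to 304, 1 to 37 and 1 to 23 for DIs; at 10 h against 3 h it gave 0 to 7 for middle and 0 to 3 for far contacts.

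The mean observed over expected ratio among members went from 2.25 to 1.88 (3 h), 2.203 to 1.94 (10 h), 1.89 to 1.78 (imminent division) and 2.13 to 1.85 (pre-S) with 150 kb windows, to 2.51, 2.47, 2.09 and 2.41 with genome-wide coverage, and to 2.22 at 3 h and 1.86 at imminent division without the 5 largest pairs; a single library of each group gave 2.24 to 2.26, 2.11 to 2.30, 1.88 to 1.91 and 2.08 to 2.17. Insulation over 250 kb was 0.36, 0.39, 0.28 and 0.19 in the order of groups, against 0.26, 0.29, 0.12 and 0.13.

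Signs turned for Rpl23 (−0.0047, interactivity at imminent division against 10 h) and for Rpl15 (0.0109), Rps29 (0.0326) and Rpl8 (0.0103) at imminent division against pre-S without the curve, for Rps9 there (−0.0542 with TMM, −0.0723 with DESeq2), and with bin coverage for Rps24 (0.17, near, pre-S against 10 h), Rpl39l (−0.0843, near, imminent division against pre-S) and Rpl10l (−0.0388, far, pre-S against 10 h).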
